A study of Rattus norvegicus with 4 samples.

Results

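Growth hormone (Gh1), prolactin (Prl), the alpha subunit shared by the glycoprotein hormones (Cga), the beta subunits of thyrotropin (Tshb), luteinizing hormone (Lhb) and follicle-stimulating hormone (Fshb), and proopiomelanocortin (Pomc), the precursor of corticotropin, are the hormone transcripts of the anterior pituitary. These 7 genes, of 15443 named genes on the array, were followed in 2 brain regions of rats, cerebellum and prefrontal cortex. They were chosen by the processed signals of these same arrays, on which Gh1 and Prl were lower in the depressive pools. The difference between depressive and control pools is therefore a description for all 7 genes and carries no test.

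Male rats, 106 in all and described as normal, were scored by the share of time they spent immobile in the forced swimming test, a test in which immobility in water is read as a depressive-like behaviour. The depressive groups came from rats with depressive-like scores and the control groups from rats with average scores, so both had been through the test, and 50 rats were killed 1 week after it. The brain was taken after saline had been perfused through the heart, and a slice 1 mm thick was cut 9.8 to 10.8 mm behind the bregma for the cerebellum or 3.2 to 4.2 mm in front of it for the prefrontal cortex. The 4 groups were depressive cerebellum, control cerebellum, depressive prefrontal cortex and control prefrontal cortex, and each was 1 RNA pool of 4 rats, labelled with Cy3 from 400 ng and hybridised to 1 Agilent 1-colour array. No group has a second pool, so within a tissue there is no replicate check, and no difference given here measures the spread between rats.

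In the pituitary, somatotrophs make growth hormone and lactotrophs make prolactin, and both cell types, with thyrotrophs, depend on the transcription factor Pou1f1. Cga pairs with Tshb in thyrotrophs and with Lhb or Fshb in gonadotrophs, and each beta subunit gives its hormone its specificity. Corticotrophs cut Pomc into corticotropin, while in the brain Pomc is best known from neurons of the arcuate nucleus of the hypothalamus, which lies in neither slice.

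Set against the deposited value table, which is keyed by sample, the scanner file linked to the depressive cerebellum sample held the control prefrontal cortex array, and the file linked to the control prefrontal cortex sample held the depressive cerebellum array. Each matched column and file correlated at 0.99989 or more across 23207 probes, against 0.933 for these 2 samples and their own linked files. The value table was followed throughout. With the files as linked, Gh1 was 24.5-fold lower in the depressive than the control cerebellum sample, with both above background, and neither prefrontal cortex sample had Gh1 well above background. The tissue markers gave the same tissues as the value table. Summed over 10 cerebellum markers, the level in multiples of each array's 75th percentile was 250.7 and 267.1 on the depressive and control cerebellum arrays, against 7.07 and 7.58 on those of the prefrontal cortex, and over 6 cerebral cortex markers it was 3.46 and 4.49, against 94.2 and 99.7. These markers cannot tell a depressive from a control array. The signal at the 75th percentile of each array was 3053 and 2835 on the depressive and control cerebellum arrays, and 2375 and 2256 on the depressive and control prefrontal cortex arrays.

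Each of the 7 genes had 1 probe, printed as 2 spots on each array. Signals below are the processed intensity of Feature Extraction, which has the background removed and no unit. They compare arrays for 1 probe and not 1 gene with another. A gene counted as well above background where at least 50% of its spots carried the flag of that name. By that rule 3 genes, Pomc, Lhb and Fshb, were well above background on all 4 arrays, while Gh1 and Cga were so on both control arrays and neither depressive array, and Prl and Tshb on the control cerebellum array alone.

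Upstream windows of 4 of the genes are shown because the signals of Prl, Cga and Tshb were below background in the depressive cerebellum and above it in the control cerebellum, while Lhb, which pairs with Cga, was above it in both. They run from 250 bases before to 50 bases after the RefSeq start of transcription on assembly GRCr8. Such windows were at hand for 5 of the 7 genes. None was for Gh1 or Fshb, so these 2 genes were not searched for the letters below. Capitals mark letters found on either strand of TATNCAT, the core of sites bound by Pou1f1, of TATAAA, the TATA box, or of TGACCTTG, a site of the gonadotroph factor SF-1 (Nr5a1). No marked match overlaps another.
Prl, chr17:38298168-38298467, minus strand: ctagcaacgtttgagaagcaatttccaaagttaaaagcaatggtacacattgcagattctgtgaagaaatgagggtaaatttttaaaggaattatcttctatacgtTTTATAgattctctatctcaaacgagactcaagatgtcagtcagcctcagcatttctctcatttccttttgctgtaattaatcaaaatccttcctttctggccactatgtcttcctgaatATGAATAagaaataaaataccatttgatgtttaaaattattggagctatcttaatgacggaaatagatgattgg
Cga, chr5:54283090-54283389, plus strand: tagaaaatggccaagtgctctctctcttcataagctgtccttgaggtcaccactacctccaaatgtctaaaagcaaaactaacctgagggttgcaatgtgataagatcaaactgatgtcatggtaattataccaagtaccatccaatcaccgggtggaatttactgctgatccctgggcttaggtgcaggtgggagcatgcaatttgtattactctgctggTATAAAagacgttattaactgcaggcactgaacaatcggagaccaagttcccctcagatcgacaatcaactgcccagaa
Tshb, chr2:192918005-192918304, minus strand: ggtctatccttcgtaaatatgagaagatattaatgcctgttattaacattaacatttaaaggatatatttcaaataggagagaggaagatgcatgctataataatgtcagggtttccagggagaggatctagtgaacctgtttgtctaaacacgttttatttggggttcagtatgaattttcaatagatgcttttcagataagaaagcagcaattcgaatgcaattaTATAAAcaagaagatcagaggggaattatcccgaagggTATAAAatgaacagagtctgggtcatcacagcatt
Lhb, chr1:105037207-105037506, plus strand: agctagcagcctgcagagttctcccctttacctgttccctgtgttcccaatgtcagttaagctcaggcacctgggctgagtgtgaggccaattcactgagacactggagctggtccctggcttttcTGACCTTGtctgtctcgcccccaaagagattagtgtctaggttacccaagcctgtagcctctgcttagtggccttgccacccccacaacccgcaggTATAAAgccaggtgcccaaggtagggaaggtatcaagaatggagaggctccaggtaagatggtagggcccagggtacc
The Pou1f1 letters occur in 9.88% of 33365 promoter windows of this length, and of these 4 genes in that of Prl, 24 bases before the start. TATAAA occurs in 14.2% of the windows and in all 4 of these, in that of Prl on the opposite strand and 144 bases before the start. The SF-1 letters occur in 1.52% of the windows and here in that of Lhb, 124 bases before the start. A match is a run of letters and was not tested as a binding site.

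With the arrays so assigned, Gh1, one of the genes picked for its fall, was below background in the depressive cerebellum pool and far above it in the control pool. Its 2 spots read 7.64 and 6.65 on the depressive cerebellum array, against 892 and 872 on the control cerebellum array. Both spots of the depressive pool were below background and both of the control pool were far above it, and the spots of a pool lay close to each other. How much lower Gh1 was depends on the detection limit taken for the depressive array. Against the lowest mean signal, 15.2, of any probe well above background there, which can average in a spot without the flag, it was at least 62.5-fold lower (log2 difference at most -5.97). Against the lowest single flagged spot, 30.2, the log2 difference was at most -4.98, and with normexp background correction it was at most -3.68. In RNA from whole slices, fewer cells of a type and less RNA per cell cannot be told apart. In the authors' deposited table Gh1 stood at 0.002 in the depressive and 0.312 in the control cerebellum sample, on that table's own linear scale.

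The raw scan showed the same picture before any correction. On the depressive cerebellum array the median pixel of the Gh1 spots was 44 and 47.5, against a local background of 47 and 64 around them. On the control cerebellum array it was 913 and 975, against a local background of 40 and 56. The Gh1 spots of the depressive pool were thus no brighter than the glass beside them. Of the 18 and 19 measured spots within 2 rows and columns of the Gh1 spots, 2 and 0 were 2-fold lower or more in the depressive pool, and the medians of these neighbours were -0.01 and -0.07 on the log2 scale.

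**Figure D1:**
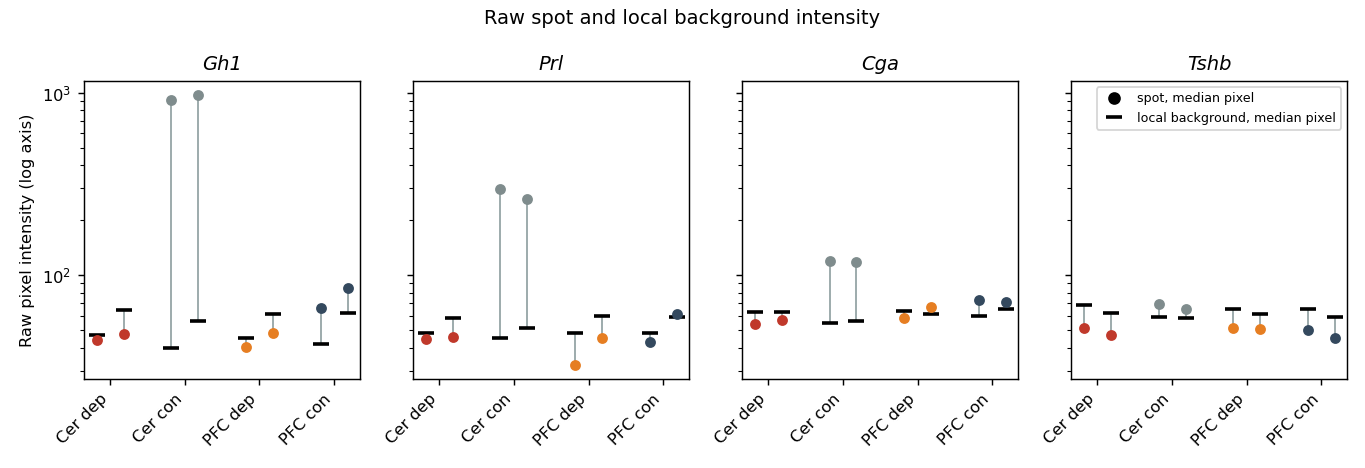
Median pixel intensity of each spot (points) and of the local background around it (bars) before background correction, on a log axis, for the 4 genes that lost detection, on the depressive (dep) and control (con) arrays of cerebellum (Cer) and prefrontal cortex (PFC), with 2 spots per array joined to their background by a line. The Gh1 spots of the control cerebellum array stood at 913 and 975, over a background of 40 and 56, and those of the depressive cerebellum array at 44 and 47.5, below their background.

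In the prefrontal cortex Gh1 was faint in the control pool and below background in the depressive pool. The spots read 4.27 and 3.80 on the depressive prefrontal cortex array, against 22.9 and 35.9 on the control prefrontal cortex array. Gh1 was at least 3.40-fold lower in the depressive pool (log2 difference at most -1.77) by the lowest probe well above background. It no longer reached 2-fold with normexp background correction (-0.58) or with a bound set at the lowest single spot flagged as above background (-0.79). The order of the 4 arrays for Gh1 ran from control cerebellum through control prefrontal cortex to the 2 depressive arrays, which were both below background and have no order between them.

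Prl followed Gh1 in the cerebellum. Its spots read 7.65 and 7.71 on the depressive cerebellum array, against 277 and 243 on the control cerebellum array. Against the limit of 15.2 it was at least 18.4-fold lower in the depressive pool (log2 difference at most -4.20). Against that of 30.2 the log2 difference was at most -3.21, and with normexp background correction it was at most -2.03. The spots read 4.40 and 4.44 on the depressive prefrontal cortex array, against 4.61 and 21.1 on its control. Neither pool had Prl well above background there, and the 2 control spots differed from each other, so no fold is given.

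The glycoprotein hormone alpha subunit Cga was lower in the depressive pool of the cerebellum too. Its spots read 7.69 and 6.74 on the depressive cerebellum array, against 75 and 66.5 on the control cerebellum array. Against the limit of 15.2 it was at least 5.0-fold lower (log2 difference at most -2.32) and against that of 30.2 the log2 difference was at most -1.33. With normexp background correction the bound was -0.91, short of 2-fold. On the depressive prefrontal cortex array they read 17.3 and 15.9, against 31.0 and 25.9 on the control array. No depressive spot was above background while all control spots were, and the difference in the prefrontal cortex, at least 1.80-fold lower, fell short of 2-fold. In the authors' deposited table Cga stood at 0.002 in the depressive and 0.025 in the control cerebellum sample, and at 0.007 in the depressive and 0.013 in the control prefrontal cortex sample.

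Tshb, the thyrotropin beta subunit that pairs with Cga, lay at the edge of detection. Its spots read 6.50 and 6.07 on the depressive cerebellum array, against 22.4 and 14.9 on the control cerebellum array, where 1 of the 2 spots was above background. The bound, at least 1.29-fold lower in the depressive pool, is short of 2-fold. The lowest single spot flagged as above background was 30.2 on the depressive cerebellum array, against 17.4 on the control cerebellum array, so neither Tshb spot of the control pool would have been seen on the depressive array. On the depressive and control arrays of the prefrontal cortex Tshb read 4.55 and 3.97, and 3.90 and 3.63, all below background.

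**Figure D2:**
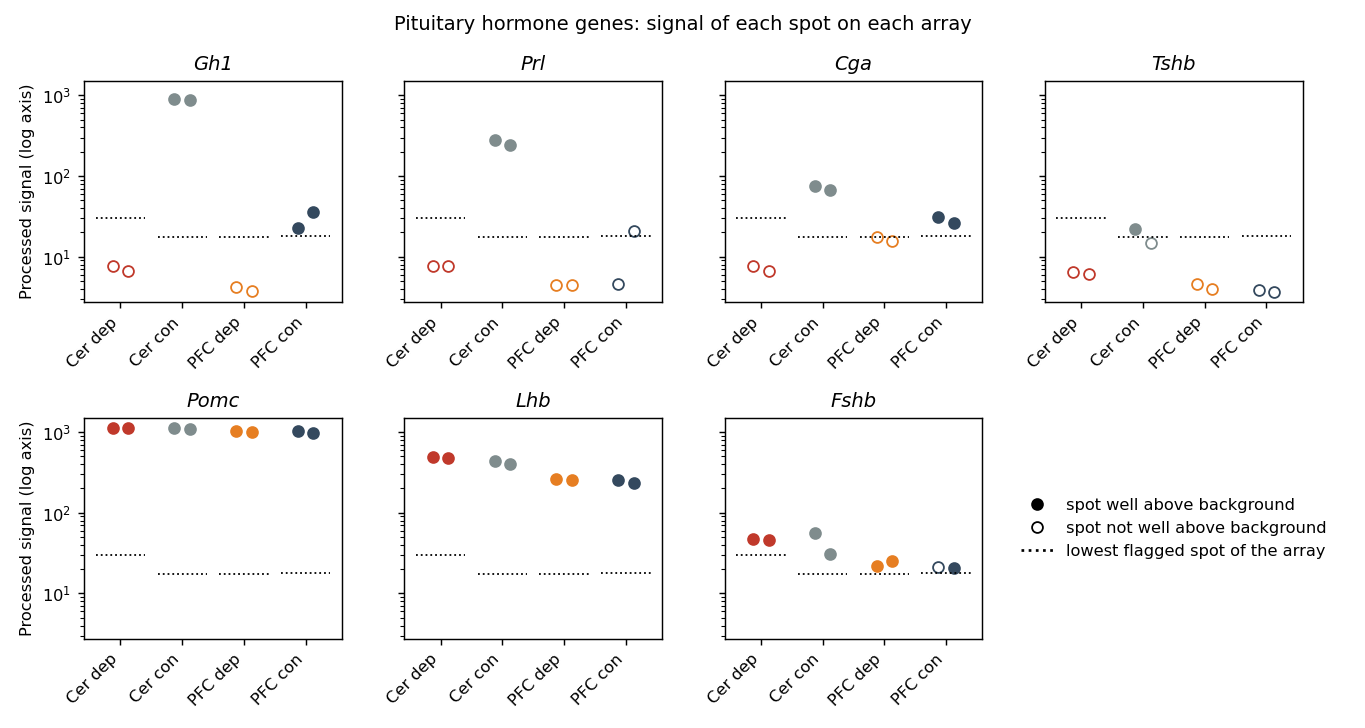
Processed signal of both spots of each gene on a log axis, on the depressive (dep) and control (con) arrays of cerebellum (Cer) and prefrontal cortex (PFC); filled points are spots flagged as well above background, open points are not, and the dotted line is the lowest flagged spot of the array. Gh1, Prl and Cga drop below the line on the depressive cerebellum array, while Pomc, Lhb and Fshb stay above it.

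The remaining hormone transcripts did not share this fall. Lhb, the luteinizing hormone beta subunit, read 485 and 472 on the depressive cerebellum array, against 442 and 405 on the control cerebellum array, a log2 difference of 0.07 (standard error 0.08 expected from spots of like brightness). It read 265 and 254 on the depressive prefrontal cortex array, against 257 and 233 on its control, a difference of 0.01. The pools of a tissue differed in Lhb by less than that error.

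Fshb, the follicle-stimulating hormone beta subunit, gave faint spots on every array. It read 46.8 and 46.0 on the depressive cerebellum array, against 56.4 and 31.1 on the control cerebellum array. It read 21.7 and 25.4 in the depressive prefrontal cortex, against 21.4 and 20.8 in its control. The log2 differences were 0.04 and 0.08, well inside the standard errors of 0.45 and 0.38 expected from spots this dim. The control cerebellum spots lay on both sides of the depressive ones.

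Pomc read 1129.7 and 1118 on the depressive cerebellum array, against 1127 and 1105 on the control cerebellum array. It read 1040.2 and 999.5 on the depressive prefrontal cortex array, against 1027 and 972 on the control prefrontal cortex array. After scaling by each array's 75th percentile the log2 differences were -0.10 in the cerebellum and -0.04 in the prefrontal cortex, with standard errors of 0.05 expected from spots. Pomc was thus level between the pools to within 1.07-fold, beside the far larger fall of Gh1.

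Of the 7 genes, 3 were 2-fold lower or more in the depressive cerebellum, where 0.331% of the 12680 genes measured were. In the depressive prefrontal cortex 1 of the 5 that could be measured was, where 0.326% of 12572 genes were, and in neither tissue was any of them 2-fold higher, against 0.765% and 0.461% of all genes. These counts rest on the contrast for which the genes were picked, so nothing is read from them. The median log2 difference of the measured hormone genes was -0.37 in the cerebellum and -0.04 in the prefrontal cortex, against -0.02 and -0.01 over all genes measured. Of the 3 genes called lower in the cerebellum, Cga had the smallest bound, -2.32, still well beyond the 2-fold line. Tshb, with a bound of -0.37, did not reach that line.

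**Figure D3:**
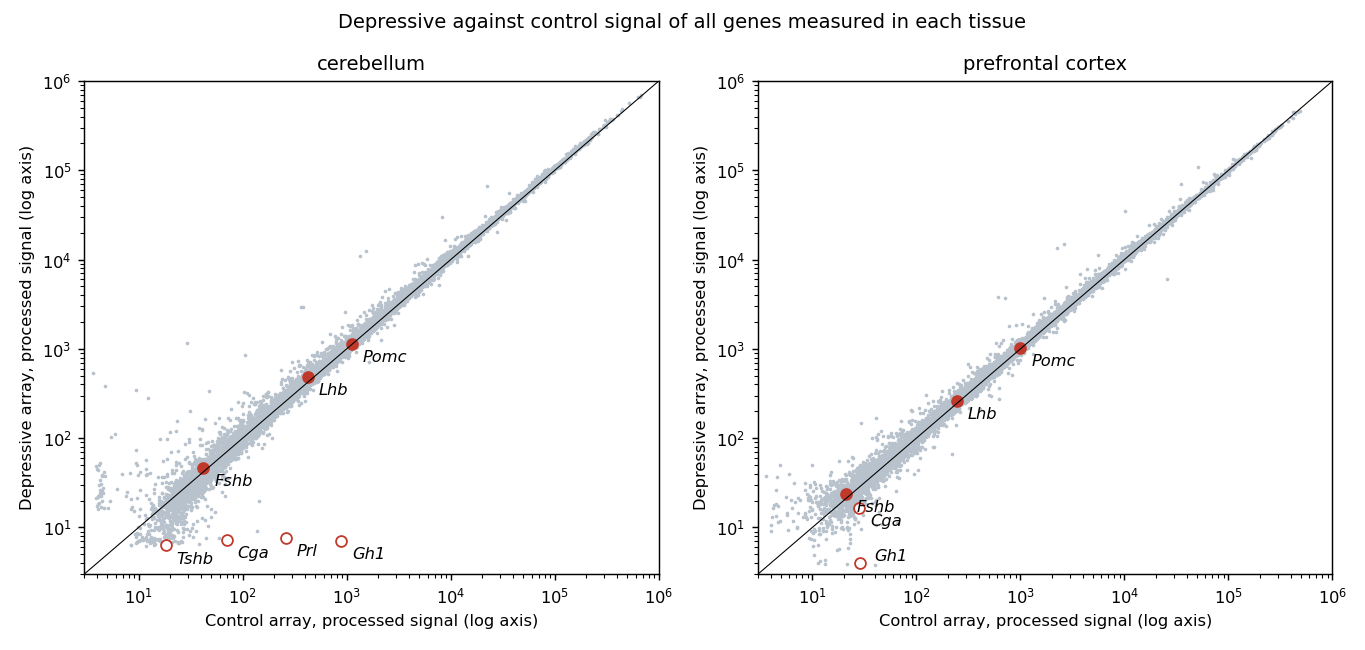
Processed signal of each gene on the depressive array (vertical) against the control array (horizontal) of a tissue, both on log axes, for genes well above background on at least 1 of the 2 arrays (grey), with the hormone genes in red (filled where both arrays were above background, open where the depressive array was not) and the line of equal signal. In the cerebellum Gh1 and Prl lie furthest below the line at their control signals of 882 and 259.6.

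How many genes lost detection is given as a description, from which nothing is read about Gh1, Prl or Cga, since the choice rested on this fall and the count starts from genes bright in the control pool. Of 6989 genes at least as bright as Gh1 on the control cerebellum array, Gh1 was the 1 gene not well above background on the depressive cerebellum array. Of 9159 genes at the level of Prl or above there, 2 were lost, Gh1 and Prl. Going the other way, of 9138 genes with at least that scaled level on the depressive cerebellum array, 4 were not well above background on that of the control. Of 10970 genes at the level of Cga or above, 5 were lost, namely Gh1, Prl, Cga, Fabp6, an intestinal bile acid binding protein, and Neurl1b, a ubiquitin ligase. At the level of Tshb loss was common, with 612 of 12465 genes (4.91%). Of 11854 genes at least as bright as Gh1 on the control prefrontal cortex array, 16 (0.135%) were lost on the depressive one.

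The genes whose pattern over the 4 arrays was nearest to that of Gh1 and Prl were each other. Both were picked for their fall on these same arrays, so nothing is read from their nearness. Distance here is Euclidean, over 4 log2 values floored at detection and centred on the gene's mean, among the 12613 genes that the control cerebellum array showed above background. Prl lay at 1.66 from Gh1. The next nearest to Gh1 were Gimd1, Fabp6, Snx22 and Zc3hav1, at 3.20 to 3.47, and the next nearest to Prl were Gimd1, Snx22, Hdlbpl1 and Or9s23b, at 1.82 to 2.19. Fabp6 had a mean signal of 19.7 on the depressive cerebellum array, against 143 on the control cerebellum array. In the prefrontal cortex it had 36.1 in the depressive and 41.1 in the control pool. Unlike Gh1 it was measured on both prefrontal cortex arrays, with a log2 difference of -0.26 between them. The other genes read 43.6 to 68.2 on the control cerebellum array and were below background on the other 3 arrays, and Gimd1, Snx22, Hdlbpl1 and Or9s23b had a single spot each. With 4 points, all from the arrays compared above, these distances are a description.

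Measured chromosomal neighbours of Cga and Tshb differed little between the cerebellum pools. In the order of RefSeq genes on GRCr8, Gh1 has Tcam1 and Cd79b as neighbours, and the nearest genes to Prl on the array were Prl3d1 and Hdgfl1, and all 4 were below background on both cerebellum arrays. Beside Cga, Zfp292 and Mob3b differed by 0.07 and -0.15 on the log2 scale between the depressive and control cerebellum arrays. Tspan2, which overlaps Tshb in that annotation, differed by -0.04. Saxo3 overlaps Lhb and Efr3b overlaps Pomc, and which of 2 overlapping genes a probe would also catch was not tested.

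Between the control pools, Gh1 and Prl were far higher in the cerebellum than in the prefrontal cortex. Gh1 had 882 in the control cerebellum against 28.7 in the control prefrontal cortex, 24.5-fold higher after scaling. Prl had 259.6 in the control cerebellum against 9.87 in the control prefrontal cortex and was at least 20.9-fold higher, Cga was 1.98-fold higher and Tshb at least 1.62-fold higher, the bounds being taken at the lowest probe well above background or the gene's own signal. In the depressive pools these 4 genes were below background in both tissues, so no fold between tissues can be given for them. The tissue difference of Gh1 and Prl thus rests on 1 control array per tissue and has no test.

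The 3 hormone genes measured on all 4 arrays could be tested between tissues, in a limma fit over 11623 genes with state as a block, 1 residual degree of freedom and Benjamini-Hochberg adjustment. Fshb was higher in the cerebellum than in the prefrontal cortex by 0.64 on the log2 scale (SE 0.05, adjusted p = 0.00210) and Lhb by 0.49 (SE 0.05, adjusted p = 0.00391), each in both states. Pomc was lower in the cerebellum by a log2 difference of -0.20 (SE 0.05, adjusted p = 0.0351), also in both states. It did not pass the threshold with the arrays scaled by their median (adjusted p = 0.0746). Nor did it when the depressive cerebellum, depressive prefrontal cortex or control prefrontal cortex array was left out. Those fits had no block and 1 array for a tissue, and gave log2 differences of -0.15, -0.22 and -0.17. Fshb lost its call with another background correction (log2 difference 0.08, adjusted p = 0.242). In this fit 72.9% of all genes were called, so passing it marks these 3 genes out from few others. Its standard errors are moderated toward a variance shared over all genes. For Fshb the error of 0.05 is far below the 0.45 and 0.38 expected from its spots within each tissue. The p-values therefore read firmer than so dim a probe allows, and they do not measure the spread between rats.

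The transcription factors of the pituitary were mostly faint. Of 12, 10 were on the array and 5 were below background on all arrays. Pou1f1, which drives Gh1, Prl and Tshb and is singled out here after its values were seen, had 40.7 on the depressive and 66.6 on the control cerebellum array, with 53.7 and 55.8 in the depressive and control prefrontal cortex, log2 differences of -0.82 (standard error 0.39 expected from spots) and -0.13. Nr5a1 had 22.7 on the depressive cerebellum array, where it was above background, against 7.59 on the control cerebellum array, at least 2.53-fold higher, though its mean lay under the lowest flagged spot, 30.2, of that array. It was the 1 factor of 5 measured there that reached 2-fold. The median of the list was -0.25 in the cerebellum and 0.01 in the prefrontal cortex.

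The receptors through which the hypothalamus acts on the pituitary showed no 2-fold difference. Of 8 on the array, Ghrhr, the growth hormone releasing hormone receptor, and Gnrhr, the gonadotropin releasing hormone receptor, were below background on all arrays, and the medians of those measured were -0.05 in the cerebellum and -0.01 in the prefrontal cortex. Drd2, the dopamine receptor by which prolactin release is held down, had 346 on the depressive and 289 on the control cerebellum array, a log2 difference of 0.15. Sstr2, a somatostatin receptor, and Crhr1, the receptor of corticotropin releasing hormone, differed by -0.03 and -0.06 there. The peptides of the hypothalamus and posterior lobe, 8 of 9 on the array, likewise had 0 genes at 2-fold in either tissue. Somatostatin (Sst), which holds back growth hormone release, had 7620 on the depressive and 7257 on the control cerebellum array, and Avp, the vasopressin precursor, 1247 and 1051.

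Downstream of the hormones, 0 of the measured hormone receptors and 0 of 10 genes of growth hormone and prolactin signalling reached 2-fold in either tissue. Ghr, the growth hormone receptor, had 172 on the depressive and 164 on the control cerebellum array, and Prlr, the prolactin receptor, had 238 and 165, a log2 difference of 0.42 (standard error 0.15 expected from spots). Igf1, a target gene of growth hormone in liver, differed by -0.08 in the cerebellum and 0.14 in the prefrontal cortex, and Jak2, the kinase bound to both receptors, by 0.14 in the cerebellum. The 10 genes that process and package prohormones, among them Chgb, Scg5 and Cpe, had medians of -0.04 in both tissues. Of 24 other genes of the prolactin family and glycoprotein hormone subunits on the array, 18 were below background on all arrays, and Prl7b1, with 24.3 on the depressive and 4.24 on the control cerebellum array, was at least 2.70-fold higher in the depressive pool, again with a mean under that spot. A limma fit of depressive against control with tissue as a block called 0 of 38 related genes measured on all arrays after Benjamini-Hochberg adjustment, and 2 at an unadjusted p under 0.05, where it called 0 of 11623 genes (0%) and 905 unadjusted.

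**Figure D4:**
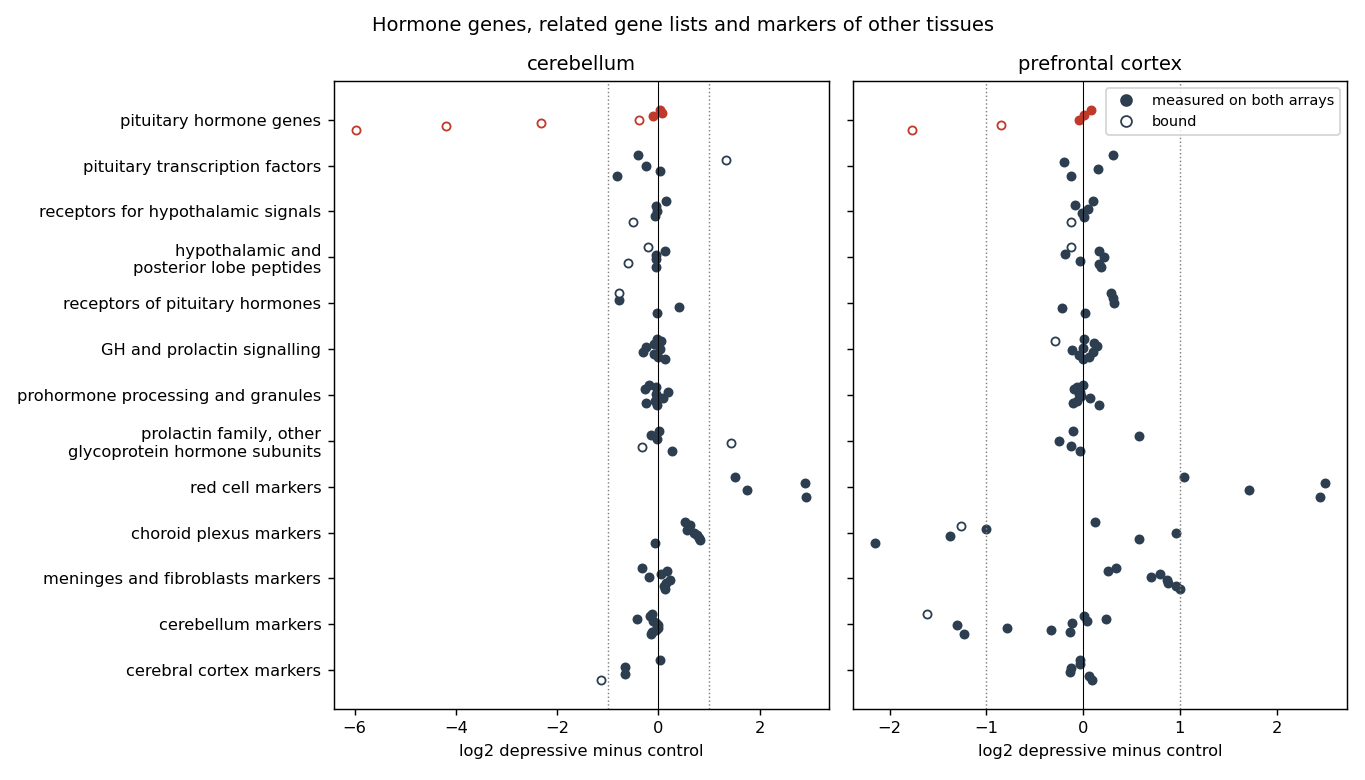
Log2 difference, depressive minus control, of each measured gene of the hormone set (red), of the related lists and of the marker lists (dark), in the cerebellum (left) and the prefrontal cortex (right), with dotted lines at 2-fold; open points are bounds. Gh1, Prl and Cga in the cerebellum lie left of all the related genes, and the 4 red cell genes lie right of the upper 2-fold line in both tissues.

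Markers of other cell types differed between the pools that differ in Gh1. The summed level of 4 red cell genes, in multiples of the array's 75th percentile, was 17.5 on the depressive and 3.93 on the control cerebellum array, with 26.7 and 6.65 in the depressive and control prefrontal cortex, all 4 genes being 2-fold higher or more in the depressive pool of each tissue. The 9 choroid plexus genes summed to 264.9 on the depressive and 262.5 on the control cerebellum array, with 8 of 9 above 0 on the log2 scale and a median of 0.62. On the depressive and control prefrontal cortex arrays they summed to 4.71 and 13.3. Of 7 measured there, 4 were 2-fold lower or more and 3 (Aqp1, Kcnj13 and Enpp2) were higher, by 0.96, 0.57 and 0.12 on the log2 scale. Ttr alone gave 25617 of the summed signal of 30055 in the control prefrontal cortex. The 8 genes of meninges and fibroblasts summed to 145.5 and 132.6 in the depressive and control cerebellum and to 54.2 and 27.6 in the depressive and control prefrontal cortex. In the prefrontal cortex, 3 of 10 cerebellum markers (Pcp2, Gabra6 and Ppp1r17) were 2-fold lower or more in the depressive pool. Over the 10, 7 lay below 0 and 3 (Zic1, Zic2 and Grm4) above it, with a median of -0.23. Their summed level was 7.07 in the depressive and 7.58 in the control prefrontal cortex. The 4 pineal genes summed to 0.348 and 0.244 in the depressive and control cerebellum, with Crx below background on all arrays. The part of any of these in the fall of Gh1, Prl and Cga was not tested.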

How the data were processed

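The 4 scanner files hold intensities per spot, made by the authors with Agilent Feature Extraction 10.7.1.1 under protocol GE1_107_Sep09 and naming build rn4, per the file headers. The deposited value table gives a linear intensity for 23207 probes, with no statement of how it was scaled. Title, source name and characteristics gave the groups. Each scanner file was assigned to the sample whose value-table column it matched, which was decided once the files had been compared; the description field of the depressive samples names the other tissue.

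Control spots and outlier spots were left out, log2 processed intensity was averaged over a probe's spots, and the 75th percentile of the array taken off. Of 30367 probes, 18355 were named through RefSeq accessions, giving 15443 genes. A gene was represented by its brightest probe. Where 1 array of a pair was below background, its level was replaced by the dimmest signal of any detected probe on it, or by the gene's own signal if higher, and the fold is a bound. Calls were differences of 2-fold or more. The number of arrays limits the precision. Fits used limma 3.58.1 in R 4.3.3, tested on simulated data, and Python 3.11.15 did the rest. As the files hold no mean signal, the normexp alternative used the median signal and background, with an offset of 50. The genes, lists and tests were chosen with earlier results of these data known. Named are the 7 hormone genes, the 5 nearest in pattern to Gh1 and to Prl, and of each related list its genes at 2-fold or, failing these, the 3 brightest.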

Additional observations from a re-analysis of the deposited data

Results flagged for a closer look

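Of the genes named, Mc4r, a melanocortin receptor that answers peptides cut from Pomc, lay below 0 in the cerebellum and above 0 in the prefrontal cortex, with log2 differences between depressive and control of at most -0.77 and of 0.29. In the cerebellum it had 17.3 on the depressive array, below background, and 27.4 on the control array, which is under the lowest flagged spot, 30.2, of the depressive array. Igf1 lay at -0.084 in the cerebellum and 0.14 in the prefrontal cortex. The difference between the tissues was not tested for either gene, since each tissue has 1 array per state.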

How the results depend on the processing

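The log2 difference of Gh1 between depressive and control cerebellum was at most -5.97. With files as linked, where both arrays were above background, it was measured at -4.61. The bound was -3.68 with normexp background correction, -5.71 after quantile normalization and -5.70 in the deposited value table. In that table the floor was 0.006, above the 0.002 of Gh1 in the depressive cerebellum sample. With the floor at the lowest flagged spot, which was chosen after seeing the data, the bound was -4.98. The bound of Prl was -2.03 with normexp and -3.21 with that floor. The bound of Cga was -0.91, short of 2-fold, with normexp and -1.33 with that floor, and its measured difference with files as linked was -0.99. Tshb has no fold with that floor. In the prefrontal cortex Gh1 fell short of 2-fold with normexp (-0.58) and with that floor (-0.79), and Cga was at -0.21 with normexp, whose added offset shrinks dim differences. The count of hormone genes 2-fold lower in the cerebellum was 3, and 2 with normexp, in the value table and with files as linked. Prl and Tshb are absent from the value table, which covers 12267 named genes, and its count of 2 is Gh1 and Cga. The count became 0 among genes above background on all 4 arrays, which leaves out Gh1, Prl and Cga. In the prefrontal cortex the count became 0 with normexp, with that filter, with files as linked and with that floor.

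Of all genes in the cerebellum, 42 were 2-fold lower, against 5 with normexp, 24 with quantile normalization, 23 in the value table, 6 above background on all arrays, 17 with that floor and 1354 with files as linked, and 97 were higher, against 28 with normexp, 49 in the value table, 37 above background on all arrays and 1749 as linked. In the prefrontal cortex 41 were lower, against 4, 9 and 21 with normexp, that filter and that floor and 1237 as linked, and 58 were higher, against 10, 24 and 31 and 1722 as linked. Files as linked exchange the depressive cerebellum and control prefrontal cortex arrays, so the fits change places: 0 genes were called between tissues, 8472 between states and 34 of the related genes, and the tissue differences of Pomc, Lhb and Fshb reversed to 0.071, -0.041 and -0.061. Normexp gave 5 calls between states. In the tissue fit Pomc had a log2 difference of -0.15 with median scaling, and of -0.24 to -0.15 with 1 array left out, and Fshb 0.08 with normexp. Fits with 1 array left out had no block and left 1 array in a group, so their counts of called genes are omitted. The totals at the end of this paragraph still include such fits. Between states such a fit takes the tissue differences as its spread, so it cannot show whether states differ. In all, 100 gene values moved by less than their error or, in the tissue fit, kept their direction and call. Another 19 gene values moved further, 5 lost their call and 3 reversed. Counts were compared by size alone, and 75 stayed within 1.5 times of the main count while 27 moved further. Otherwise the cause of a change was not tested. No paired analysis was possible because each group has 1 array and the labels give no replicate numbers. With 1 pool per group and signals near background, the values of Tshb, and of Gh1 and Cga in the prefrontal cortex, are at the limit of what these arrays can show.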
